A study of Arabidopsis thaliana with 12 samples.

Results

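DYW2 and NUWA are pentatricopeptide repeat proteins that act together in the editing of organelle transcripts, and the comparison described here sets plants labelled homozygous for an insertion in one gene directly against plants labelled homozygous for an insertion in the other. Its members are the 3 libraries titled dyw2_HO and the 3 titled nuwa_HO, 6 of the 12 libraries of the series, across all genes. The 3 libraries titled dyw2_HE and the 3 titled nuwa_HE, from plants labelled heterozygous for an insertion in the same genes, were used as a background reference. All plants carried a T-DNA, a DNA segment inserted by Agrobacterium, so no group is wild type by its labels, although the deposited files of the heterozygous samples are named as wild type. Every sample combined flower bud, rosette and stem at Boyes stage 5.10, from plants grown on soil with 16 h light at 20 °C, 8 h dark at 18 °C and 60% humidity. Ages and insertion sites are not stated in the labels, so it is unknown whether each group is 1 line. The series calls the replicates biological, and if they are not from separate plants, the p-values here reflect only sample-to-sample spread, which may be technical.

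Plastids and plant mitochondria keep small genomes whose transcripts are edited after transcription, with specific cytidines changed to uridines. The site is chosen by pentatricopeptide repeat proteins, each of which binds a short stretch of RNA, and the change is made by a deaminase-like DYW domain. NUWA binds to repeat proteins that lack a complete DYW domain, and DYW2 supplies that domain in the same complexes. When mitochondrial respiration is disturbed, plants raise a set of nuclear genes that includes the alternative oxidases, and NAC transcription factors read an element in many of their promoters. When plastid gene expression is disturbed, nuclear genes of photosynthesis are lowered.

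The label fields disagree for 2 of the 6 homozygous libraries. The genotype field gives dyw2_HO replicate 2 as a nuwa homozygote and nuwa_HO replicate 3 as a dyw2 homozygote, and titles were followed. NET2B and UCH1 differed between the heterozygous groups. They were chosen after their values were seen, among genes called the same way between the homozygous groups set by title. That choice favours genes at which the disputed libraries lie with their titles, so the values below are no independent check of the labels. NET2B, for a NETWORKED actin-binding protein, had 1.82, 1.46 and 0.824 CPM (read counts scaled to library size with TMM factors) in the dyw2 heterozygous libraries and 0.0220, 0 and 0 in the nuwa ones. It had 5.35, 4.41 and 4.76 CPM in dyw2_HO replicates 1, 2 and 3 and 0, 0 and 0.0476 in nuwa_HO. UCH1, for a ubiquitin C-terminal hydrolase, had 4.59, 4.83 and 4.81 CPM in the dyw2 heterozygous libraries and 15.1, 15.7 and 14.8 in the nuwa ones. It had 4.37, 4.66 and 4.89 CPM in dyw2_HO and 15.8, 13.98 and 13.2 in nuwa_HO. At both genes each disputed library lay with the other libraries of its title.

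The libraries of both homozygous groups also differed in depth and in flower RNA. Each dyw2_HO library held 13329334 to 24632485 counts and each nuwa_HO library 37496733 to 68078412, against 54220595 to 97804029 in the heterozygous ones. The first principal component of log2 CPM (67.0% of variance) held the dyw2_HO libraries at 160 to 186 and all others at -90.3 to -22.6. The mean log2 CPM of 34 flower bud markers was -2.69, -2.35 and -2.24 in dyw2_HO and -2.73, -2.73 and 1.85 in nuwa_HO replicates 1, 2 and 3, against -0.067 to 2.78 in the heterozygous libraries. Replicate 3 of nuwa_HO, 1 of the disputed libraries, therefore held flower transcripts at a level of the heterozygous libraries while the other 5 homozygous libraries did not. Results that rest on it are given with and without it.

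DYW2 transcripts were not lower in dyw2_HO, and NUWA transcripts were lower in nuwa_HO than in dyw2_HO but not than in the heterozygous libraries. DYW2 (AT2G15690, chromosome 2, 6830995 to 6833777, minus strand, TAIR10.1) had 306, 558 and 313 counts in dyw2_HO and 367, 376 and 596 in nuwa_HO, or 10.3, 11.02 and 9.50 against 8.73, 12.6 and 14.2 CPM, with 5.11 to 7.08 in the heterozygous libraries. The homozygous groups overlapped and lay above the heterozygous libraries, and the log2 fold change of -0.20 ± 0.17 (SE) did not pass (edgeR adjusted p = 0.331). NUWA (AT3G49240, chromosome 3, 18255961 to 18258203, plus strand) had 132, 184 and 165 counts in dyw2_HO and 32, 40 and 53 in nuwa_HO, or 4.44, 3.63 and 5.01 against 0.761, 1.34 and 1.26 CPM, with 0.351 to 1.55 in the heterozygous libraries. It was 3.90-fold higher in dyw2_HO with no overlap, and nuwa_HO lay within the heterozygous range (log2 fold change 1.96 ± 0.36 SE, edgeR adjusted p = 0.000685). Between the heterozygous groups NUWA had a log2 fold change of 0.75, and the difference between both comparisons, 1.21, did not pass (edgeR adjusted p = 0.0802). Where the insertions lie within the genes is not stated in the labels, so these counts do not show whether either gene is disrupted, and directions below are between labelled libraries.

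The homozygous groups differed at most genes, and the heterozygous groups at few. Of 21213 genes tested, edgeR's quasi-likelihood test called 12684 (59.8%) between dyw2_HO and nuwa_HO at a Benjamini-Hochberg adjusted p under 0.05. Of these, 6534 (30.8% of genes tested) were higher and 6150 (29.0%) lower in dyw2_HO, with 1792 higher and 1683 lower by 4-fold or more. Between dyw2_HE and nuwa_HE it called 28 (0.132%), 6 higher (0.0283%) and 22 lower (0.104%), with 1294 at an unadjusted p under 0.05. That balance was not stable: without nuwa_HE replicate 2 edgeR called 115, 92 higher and 23 lower, without dyw2_HE replicate 2 it called 18, and DESeq2 called 160, 101 higher and 59 lower. The median absolute log2 fold change was 0.78 between the homozygous groups and 0.16 between the heterozygous ones. At 14085 genes (66.4%) the log2 CPM of dyw2_HO and nuwa_HO did not overlap. The homozygous difference departed from the heterozygous difference at 8667 genes (40.9%), 4074 upwards (19.2%) and 4593 downwards (21.7%). Called the same way in both tests were 3994 higher and 4496 lower genes.

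The count of calls stayed between 11070 and 13289 under 22 other settings. With libraries thinned to the depth of the shallowest it was 11070, and with library sizes from nuclear genes only it was 12568, with 6254 higher and 6314 lower. Without both disputed libraries it was 11787. When the genotype field set the groups, edgeR called 0 genes, and 840 at an unadjusted p under 0.05.

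**Figure D1:**
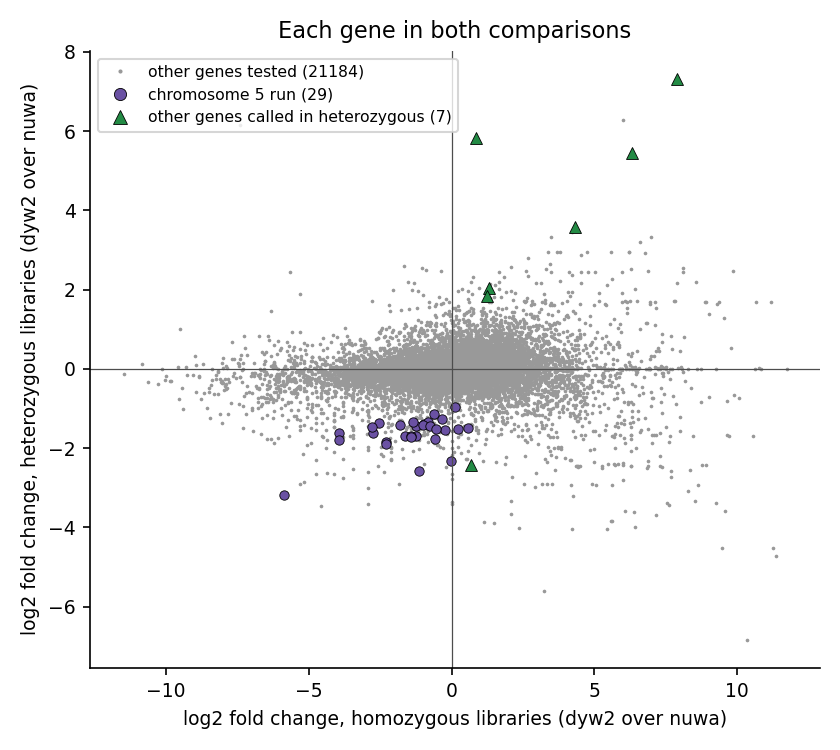
Log2 fold change of dyw2 over nuwa for each of the 21213 genes tested, between homozygous libraries (horizontal axis) and heterozygous libraries (vertical axis), 3 libraries per group. Most genes spread along the horizontal axis, while the 29 genes of a run on chromosome 5 (circles) lie below 0 on the vertical axis, and triangles mark the 7 other genes called between the heterozygous groups.

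Organelle transcripts took different shares of the libraries. Plastid genes, without rRNA and tRNA genes, held 29.98% ± 3.06 (SD, n = 3) of counts in dyw2_HO and 62.4% ± 3.71 (SD, n = 3) in nuwa_HO, 32.5 percentage points less (exact two-sided permutation p = 0.1, the smallest that 3 against 3 allow). The heterozygous groups held 61.1% and 62.8% (exact permutation p = 0.6), so nuwa_HO overlapped them and dyw2_HO lay below all other libraries. In bulk tissue, fewer cells of a type and less RNA per cell cannot be told apart. Mitochondrial genes held 2.90% ± 0.095 (SD, n = 3) in dyw2_HO and 0.538% ± 0.048 (SD, n = 3) in nuwa_HO, a 5.40-fold difference (exact permutation p = 0.1). Both are shares of all counts, so the lower plastid share of dyw2_HO by itself raises its mitochondrial share. CPM values are scaled with TMM factors, 2.02 to 2.23 in dyw2_HO and 0.617 to 0.893 in nuwa_HO, so fold changes of CPM are not fold changes of share. The heterozygous groups held 0.345% and 0.324% (exact permutation p = 0.5), below every homozygous library. Without psbA, which held more counts than any other plastid gene, the plastid shares were 15.05% and 35.9%, and without cox1 the mitochondrial shares were 2.16% and 0.422%. With groups from the genotype field the differences shrank to -12.8 points (exact permutation p = 0.5) and 0.844 points (exact permutation p = 0.3).

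**Figure D2:**
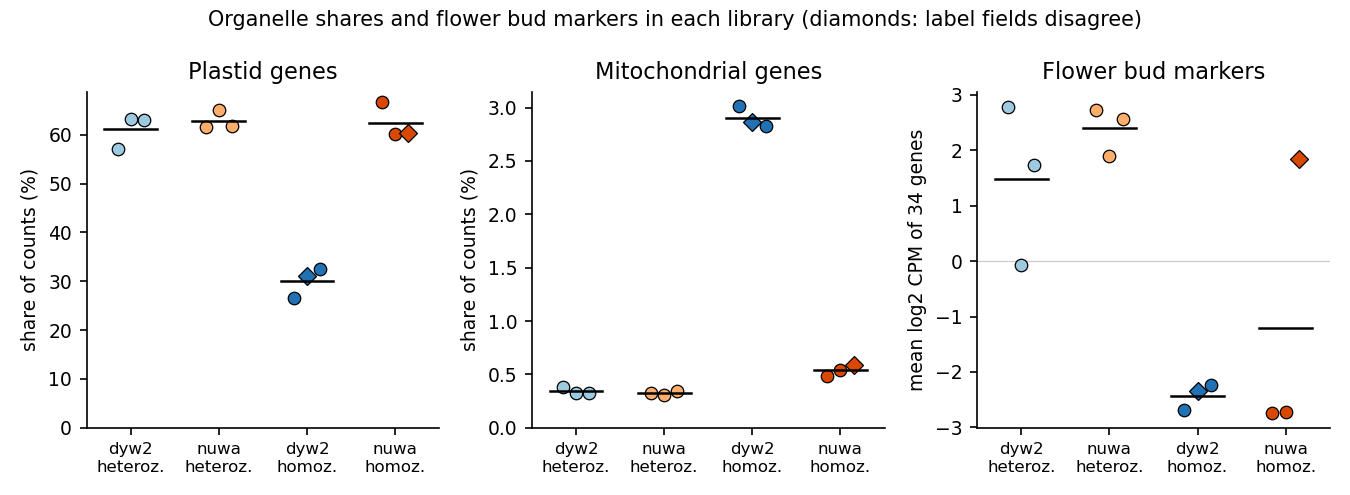
Share of counts from plastid and from mitochondrial genes (percent) and mean log2 CPM of 34 flower bud markers in each library, with group means as lines and diamonds for the 2 libraries whose label fields disagree. The dyw2_HO libraries stand apart from nuwa_HO in both organelle shares, and nuwa_HO replicate 3 alone among homozygous libraries has flower bud markers above 0, at 1.85.

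Plastid transcripts of photosynthesis were lower in dyw2_HO throughout. All 20 photosystem genes were called lower (median log2 fold change -2.64, against 0.03 over all genes tested), as were all 13 genes for rbcL, the b6f complex and ATP synthase (median -2.48) and all 10 tested NDH genes (median -2.80). Every one of these genes was also called lower in the difference beyond the heterozygous groups. Of all genes tested 29.0% were called lower between the homozygous groups and 21.7% in that difference. The photosystem I subunit gene psaJ had 193, 244 and 310.3 CPM in dyw2_HO and 4391, 2309 and 2177 in nuwa_HO, and 2327 to 4107 in the heterozygous libraries. The groups did not overlap, and psaJ was 11.9-fold lower in dyw2_HO (log2 fold change -3.57 ± 0.32 SE, edgeR adjusted p = 3.18e-06). Genes of the NDH complex, which carries cyclic electron flow around photosystem I, had the lowest median of these 3 lists. Its subunit gene ndhK had 92.96, 101 and 134 against 1837, 1203 and 1077 CPM and ndhC 38.5, 40.1 and 55.1 against 705, 487 and 450.1, 12.6-fold and 12.3-fold lower (edgeR adjusted p = 1.26e-06 and 7.26e-07). The subunit gene atpE of ATP synthase was 8.34-fold lower, at 230.1, 205 and 277 against 2228, 2240 and 1466 CPM (edgeR adjusted p = 1.07e-06).

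Plastid genes of gene expression differed less. Of 20 tested ribosomal protein genes 15 were lower (median -0.60) and none higher, and of 11 tested genes of the plastid RNA polymerase, accD, clpP, matK and ycf 6 were lower (median -0.56). Of all genes 29.0% were lower. The range within these lists was wide. The large-subunit gene rpl33 was 7.76-fold lower, at 27.6, 32.3 and 40.7 against 329, 266 and 186 CPM (edgeR adjusted p = 1.45e-06), while clpP, of the plastid protease, had a log2 fold change of -0.25 and rpoC2, of the plastid polymerase, of -0.14, neither called. The maturase gene matK, which lies in a tRNA intron, was 6.05-fold lower (515, 638 and 744 against 4878, 3730 and 2864 CPM). The subunit gene accD of acetyl-CoA carboxylase was 2.45-fold lower (299, 325 and 356 against 1027, 722 and 646 CPM, edgeR adjusted p = 0.000128). Over all 76 plastid protein-coding genes tested, 66 were lower and 0 higher by edgeR. None of the 76 was called between the heterozygous groups. Genes of the inverted repeat, such as rpl2, rpl23, rps7 and ycf2, were not tested, since reads with equal best and second-best alignment scores had been removed before counting.

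Mitochondrial transcripts went the other way. Of 76 mitochondrial protein-coding gene models tested, 67 were higher in dyw2_HO and 1 was lower, with a median log2 fold change of 1.84. Reads with equal best and second-best alignment scores are missing here too, 6.01% of mapped reads in dyw2_HO and 3.22% in nuwa_HO. A model with a like sequence elsewhere may thus hold only part of its reads, and which models this touches was not tested. Transcripts of cytochrome c maturation, matR and mttB were higher in all 6 tested (median 1.99) and those of ribosomal proteins in all 3 tested (median 1.88). Complex I was higher in 8 of 11 gene models (median 0.98), some of them pieces of 1 gene, and complexes III to V in 4 of 7 (median 0.38). Of all genes 30.8% were higher. The maturase gene matR, needed for splicing of mitochondrial introns, had 46.2, 46.7 and 54.1 CPM in dyw2_HO, 4.92, 4.996 and 7.61 in nuwa_HO and 2.01 to 2.87 in the heterozygous libraries. It was 8.36-fold higher in dyw2_HO (log2 fold change 3.06 ± 0.19 SE, edgeR adjusted p = 7.83e-07), and nuwa_HO lay between dyw2_HO and the heterozygous libraries without overlap. The ribosomal protein gene rps3 had 1061, 883 and 1130 against 193, 249.8 and 246 CPM (4.46-fold, edgeR adjusted p = 3.51e-06). The cytochrome c maturation gene ccmFN1 had 15.2, 13.5 and 16.1 against 2.78, 2.55 and 2.05 CPM (6.06-fold, edgeR adjusted p = 7.06e-07). The cytochrome oxidase gene cox1 had 3479, 3894 and 3520 against 1524, 1441 and 1576 CPM (2.40-fold, edgeR adjusted p = 2.36e-05). The cytochrome oxidase gene cox2 was 1.43-fold higher (edgeR adjusted p = 0.0136), and did not pass without nuwa_HO replicate 3 (edgeR adjusted p = 0.0541).

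The single mitochondrial gene model that was lower in dyw2_HO was nad9, a complex I subunit. It had 408, 423 and 418 CPM in dyw2_HO, 964, 797 and 754 in nuwa_HO and 162 to 202 in the heterozygous libraries. Both homozygous groups thus lay above the heterozygous ones, and nuwa_HO was the higher of them, 2.01-fold above dyw2_HO (log2 fold change -1.01 ± 0.14 SE, edgeR adjusted p = 0.000109). Of the other complex I genes nad2 had the reverse order, at 359, 394 and 369 against 172, 144 and 155 CPM (edgeR adjusted p = 6.49e-06). Of 49 other mitochondrial gene models tested, listed as open reading frames, 46 were higher (median 2.41) and none lower, against 30.8% and 29.0% of all genes. That list also takes in models whose expected name was not matched, such as ATMG00285 (nad2) and ATMG01170 (atp6). ATMG00840 had 15.3, 11.7 and 13.8 against 0.143, 0.134 and 0.167 CPM (89.6-fold, edgeR adjusted p = 5.31e-07).

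**Figure D3:**
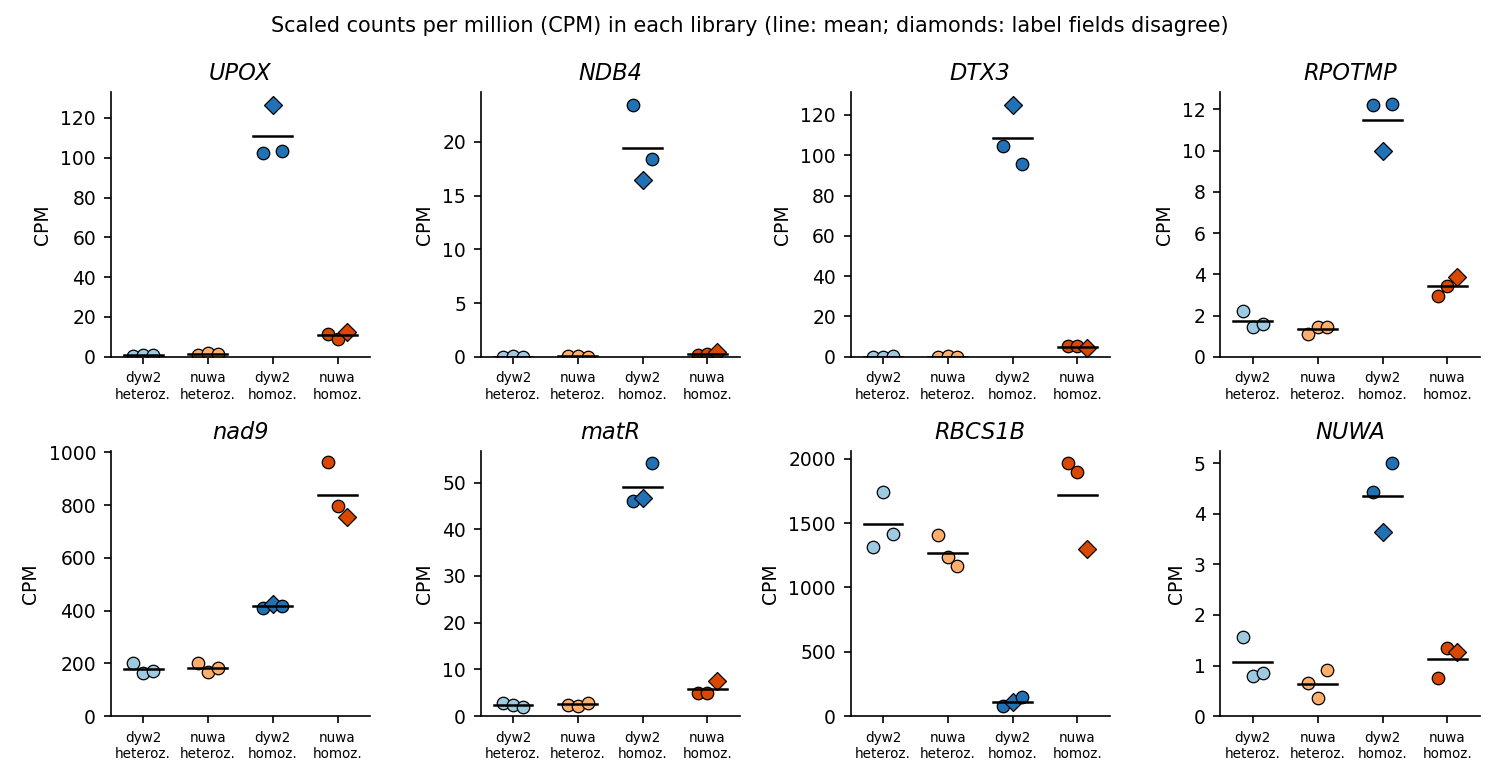
CPM of 8 named genes in each of the 12 libraries, with group means as lines and diamonds for the 2 libraries whose label fields disagree. UPOX, NDB4, DTX3, RPOTMP and matR are highest in dyw2_HO with nuwa_HO above the heterozygous means, nad9 is highest in nuwa_HO, RBCS1B is low in dyw2_HO alone, and NUWA is highest in dyw2_HO.

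Nuclear genes of the mitochondrial stress response were higher in dyw2_HO in 20 of 24 tested and lower in 1, against 30.8% and 29.0% of all genes. The list median was a log2 fold change of 3.47. Of the 21 called genes 18 were called the same way in the difference beyond the heterozygous groups. UPOX, for a small mitochondrial protein induced by oxidative stress, had 102, 127 and 103 CPM in dyw2_HO, 11.2, 8.82 and 12.3 in nuwa_HO and 0.600 to 1.67 in the heterozygous libraries. The 3 levels did not overlap, and dyw2_HO was 10.3-fold above nuwa_HO (log2 fold change 3.36 ± 0.20 SE, edgeR adjusted p = 7.06e-07). DTX3, a MATE efflux carrier, had 105, 125.1 and 95.5 CPM in dyw2_HO and 5.16, 5.30 and 4.23 in nuwa_HO, and 0.0187 to 0.190 in the heterozygous libraries (22.2-fold between the homozygous groups, edgeR adjusted p = 9.58e-07). NDB4, an external NADH dehydrogenase, had 23.48, 16.5 and 18.4 against 0.190, 0.235 and 0.476 CPM (63.2-fold, edgeR adjusted p = 5.1e-07). For these genes nuwa_HO was above all heterozygous libraries and dyw2_HO above nuwa_HO. The alternative oxidase AOX1A had a log2 fold change of 2.13 and its paralogue AOX1D of 7.46 (47.7, 38.6 and 30.2 against 0.0714, 0.168 and 0.404 CPM, edgeR adjusted p = 4.08e-05). For AOX1D nuwa_HO did not stand above the heterozygous libraries, which reached 1.39 CPM in nuwa_HE replicate 2. The transcription factors NAC13 and NAC017, which act upstream of many of these genes, had log2 fold changes of 1.70 and 0.44. The internal NADH dehydrogenase gene NDA1 was the called exception, 1.98-fold lower (38.7, 44.05 and 44.7 against 95.4, 85.8 and 71.7 CPM, edgeR adjusted p = 0.000445), and DIC1, DIC2 and AT5G64230 were not called. DTX1 and DTX3 and the GSTU genes have close paralogues, so reads that fit several copies equally well are not in their counts.

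Promoters of this list were searched for the mitochondrial dysfunction motif, the element that NAC13 and NAC017 bind. Windows of 300 bases before each annotated gene start (RefSeq, TAIR10.1) were searched on both strands for CTTG followed, after any 5 bases, by CAAG or by CACG, of which the first form reads alike on both strands. The motif letters stood in 7 of 24 windows of the list (29.2%) and in 243 of 21002 windows of nuclear genes tested (1.16%). Of genes called higher by 4-fold or more 74 of 1753 windows held a match (4.22%), of all called higher 111 of 6453 (1.72%), and of those called lower 55 of 6056 (0.908%). These shares describe letters in a window and were not tested. Many genes of the list were already known to lie downstream of NAC13 and NAC017, so its share is not an enrichment found here. Windows of 4 genes are shown because they hold the 3 matched genes of the list with the largest fold changes and its 1 gene called lower, each 5′ to 3′ on the gene's strand with matches in capitals.
UPOX (chr2:9254078-9254377, plus strand): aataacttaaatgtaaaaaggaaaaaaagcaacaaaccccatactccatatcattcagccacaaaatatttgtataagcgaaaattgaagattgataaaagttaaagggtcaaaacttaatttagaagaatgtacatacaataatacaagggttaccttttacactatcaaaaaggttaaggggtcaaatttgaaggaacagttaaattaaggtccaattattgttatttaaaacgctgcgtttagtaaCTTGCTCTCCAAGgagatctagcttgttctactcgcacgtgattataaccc
DTX3 (chr2:1339469-1339768, minus strand): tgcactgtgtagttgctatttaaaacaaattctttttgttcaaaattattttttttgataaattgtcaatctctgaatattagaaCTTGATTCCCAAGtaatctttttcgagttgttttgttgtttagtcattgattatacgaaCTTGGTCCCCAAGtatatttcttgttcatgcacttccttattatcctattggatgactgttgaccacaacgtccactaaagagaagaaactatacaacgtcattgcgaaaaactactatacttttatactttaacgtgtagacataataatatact
CYP81D8 (chr4:17571744-17572043, minus strand): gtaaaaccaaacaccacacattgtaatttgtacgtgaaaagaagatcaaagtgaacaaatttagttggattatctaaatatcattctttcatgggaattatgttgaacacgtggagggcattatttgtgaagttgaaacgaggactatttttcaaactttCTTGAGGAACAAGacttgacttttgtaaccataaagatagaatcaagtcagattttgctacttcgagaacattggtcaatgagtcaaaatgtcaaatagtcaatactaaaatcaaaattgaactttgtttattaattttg
NDA1 (chr1:2203804-2204103, plus strand): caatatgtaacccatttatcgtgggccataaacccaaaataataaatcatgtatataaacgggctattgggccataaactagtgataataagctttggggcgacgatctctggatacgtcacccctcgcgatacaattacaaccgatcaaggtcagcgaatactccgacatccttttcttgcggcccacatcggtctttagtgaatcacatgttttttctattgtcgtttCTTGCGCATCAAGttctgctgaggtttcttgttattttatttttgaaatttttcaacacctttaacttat
The matches began 51 bases before the gene start for UPOX, 215 and 156 for DTX3, 140 for CYP81D8 (a cytochrome P450, log2 fold change 4.61) and 70 for NDA1. NDB2 held CTTGGCCACCAAG 79 bases before its start, and HSP23.5 held CTTGGAGACCACG and NAC017 the reverse-strand match CGTGTCAGACAAG, each 110 bases before. Of the 7 genes with a match 6 were called higher and NDA1 lower. AOX1A, AOX1D and NDB4 have no match in their windows, which says only that these letters are not in these 300 bases.

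Chaperones and proteases divided by organelle. Of 20 tested genes of organelle protein quality control 9 were higher and 6 lower (median 0.02), against 30.8% and 29.0% of all genes. All 8 mitochondrial members, HSP23.6-MITO, AT1G52560 (a small heat shock protein), HSP60, MTHSC70-1, MTHSC70-2, CLPB4, LON1 and FTSH4, were among the 9, and of the 12 others CLPC2 was higher and VIPP1, VAR1, VAR2, CPN60A, CPN60B and CPHSC70-2 were lower. The division by organelle was made after the values were seen. CLPB4, a mitochondrial disaggregase, had 47.9, 41.05 and 37.1 CPM in dyw2_HO and 4.90, 6.84 and 8.35 in nuwa_HO, with 3.39 to 6.24 in the heterozygous libraries (6.27-fold, edgeR adjusted p = 2.15e-06). LON1, a mitochondrial protease, had 59.95, 46.3 and 58.3 against 10.1, 14.99 and 18.22 CPM (3.80-fold, edgeR adjusted p = 1.16e-05). VAR2, of the thylakoid FtsH protease, had 91.2, 94.2 and 129.9 against 271, 374 and 274 CPM and was 2.92-fold lower (edgeR adjusted p = 4.8e-05). Cytosolic heat shock genes were higher in 5 of 7 tested (median 1.98), with the chaperone gene HSP70-4 at 34.01, 29.8 and 26.5 against 3.45, 3.65 and 7.45 CPM (edgeR adjusted p = 4.39e-05). Without nuwa_HO replicate 3 the count was 4 of 8. Only 1 of the 5 was also called in the difference beyond the heterozygous groups, whose list median was 0.87.

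Nuclear genes of the respiratory chain went both ways, 7 higher and 6 lower of 18 tested, not far from the shares of all genes (30.8% and 29.0%). Their median was 0.02, and -0.05 without nuwa_HO replicate 3. Higher were subunits of complex II, with SDH1-1 at 56.99, 41.1 and 53.9 against 14.8, 20.02 and 19 CPM (2.82-fold, edgeR adjusted p = 1.05e-05), SDH2-1 at 52.8, 47.2 and 44.2 against 20.9, 19.5 and 21.1 (2.34-fold, edgeR adjusted p = 1.81e-05), the uncoupling protein gene PUMP1 (2.15-fold), and the complex I genes EMB1467 (log2 fold change 1.41) and CI51 (0.30). Lower were the complex I genes FRO1 (1.98-fold, edgeR adjusted p = 0.000277), AT4G02580 (1.58-fold) and GAMMA CAL1 (1.47-fold). Nuclear complex I genes thus went both ways, and complex II genes only upwards in the 3 tested, SDH1-1, SDH2-1 and SDH2-2 (0.38).

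Nuclear genes of photosynthesis were lower in dyw2_HO in 55 of 55 tested (median -2.89), and those of plastid ribosomal proteins in 30 of 30 (median -2.54), all with no overlap between the groups. Every gene of both lists was called lower in the difference beyond the heterozygous groups. Of all genes tested 29.0% were called lower between the homozygous groups, 21.7% were called lower in that difference, and 66.4% had no overlap. RBCS1B, a small subunit of Rubisco, had 78.2, 112 and 147 CPM in dyw2_HO, 1964, 1898 and 1299 in nuwa_HO and 1170 to 1743 in the heterozygous libraries. It was 15.3-fold lower in dyw2_HO (log2 fold change -3.94 ± 0.27 SE, edgeR adjusted p = 9.58e-07), while nuwa_HO overlapped the heterozygous range. Its near-identical family members share reads with it, so its own value is uncertain. SBPASE, a Calvin cycle phosphatase, had 48.5, 70.9 and 87.3 against 833, 886 and 674 CPM (11.6-fold lower, edgeR adjusted p = 9.78e-07). Of the genes for plastid ribosomal proteins RPL35 was 7.42-fold, GHS1 7.41-fold and RPS6 7.005-fold lower (edgeR adjusted p = 1.11e-06, 1.27e-06 and 1.26e-06). For ribosomal proteins encoded in the plastid itself the median was -0.60, as given above.

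In tetrapyrrole synthesis, the pathway to chlorophyll and heme, 19 of 23 genes were lower and 1 higher (median -1.57), against 29.0% and 30.8% of all genes. DVR, a reductase of chlorophyll synthesis, had 7.03, 8.26 and 8.98 against 60.4, 67.2 and 39.4 CPM (6.87-fold lower, edgeR adjusted p = 1.63e-06), and CHLI2, of magnesium chelatase, 5.65, 7.78 and 7.89 against 56.1, 61.4 and 35.1 (7.14-fold lower, edgeR adjusted p = 1.76e-06). The higher gene was FC1, the ferrochelatase of the heme branch that non-green tissue uses, at 42.6, 39.3 and 34.4 against 29.6, 27.5 and 29.1 CPM (1.35-fold, edgeR adjusted p = 0.0442). FC2 (AT2G30390), the ferrochelatase of green tissue, was lower and had a log2 fold change of -1.34. The call of FC1 was lost without nuwa_HO replicate 3 (edgeR adjusted p = 0.0768), and its heterozygous log2 fold change, 0.46, was of like size.

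**Figure D4:**
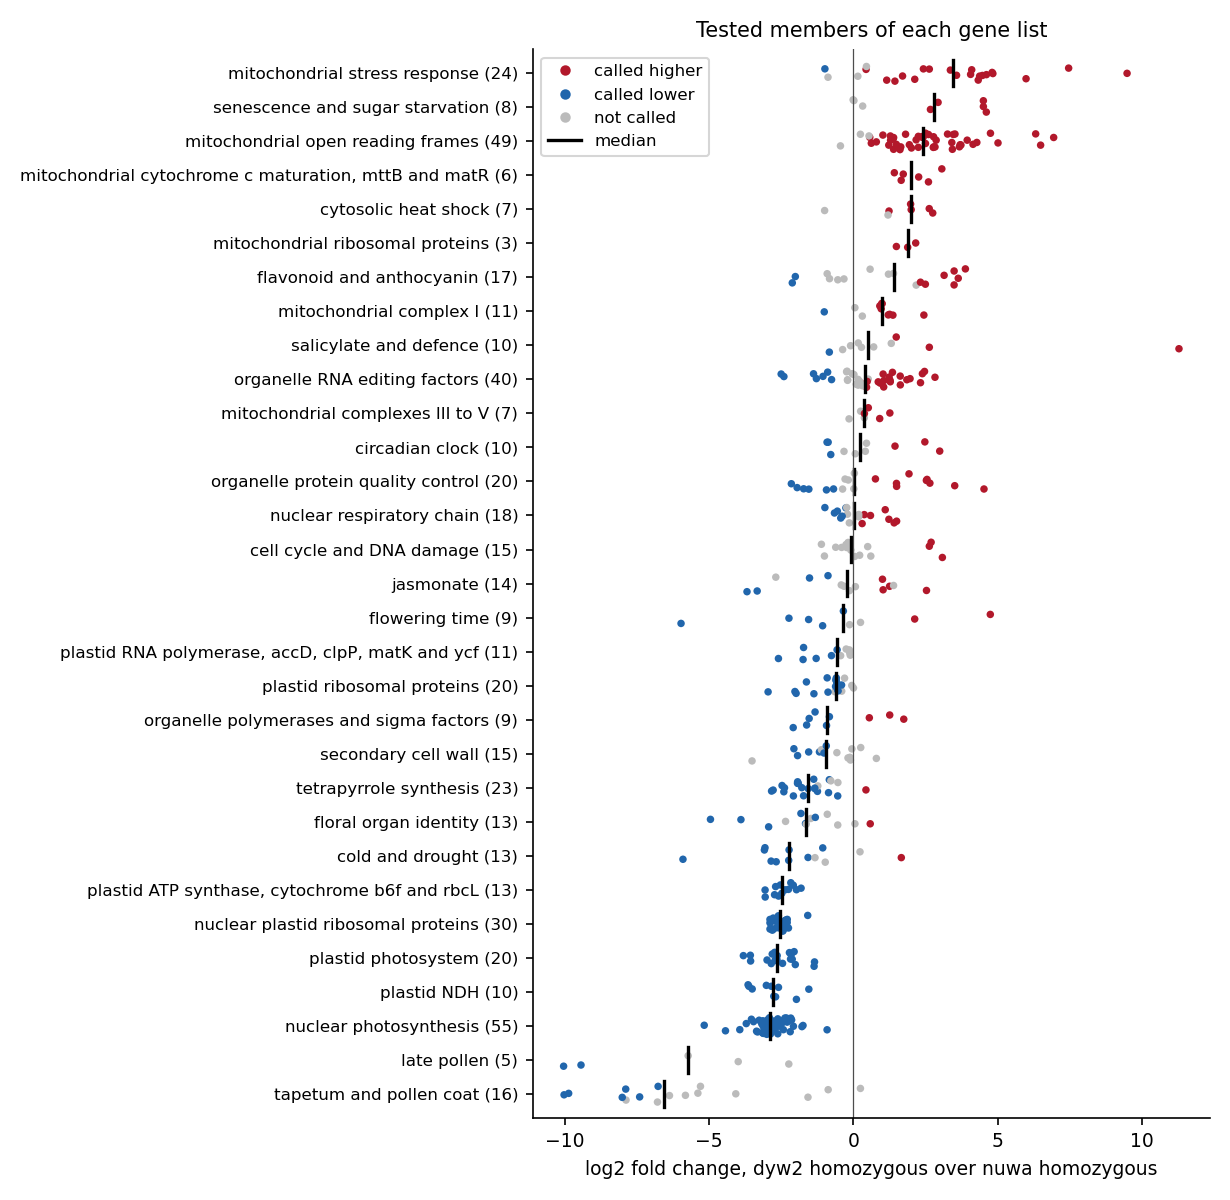
Log2 fold change of dyw2_HO over nuwa_HO for every tested member of 31 gene lists, coloured by the edgeR call, with list medians as bars and the number of tested members in parentheses. Lists of photosynthesis and of nuclear-encoded plastid ribosomal proteins lie wholly below 0. Lists of mitochondrial transcripts and of the mitochondrial stress response have medians above 0, some with members below it. The low medians of the tapetum and late pollen lists rest on nuwa_HO replicate 3.

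Organelle RNA polymerases and their cofactors divided by type. The 3 phage-type polymerases, each a single nuclear-encoded protein that transcribes organelle DNA, were higher in dyw2_HO, and all 6 sigma factors, which direct the bacterial-type plastid polymerase, were lower. Of all genes 30.8% were higher and 29.0% lower. RPOTMP, found in both organelles, had 12.2, 9.99 and 12.3 CPM in dyw2_HO, 2.97, 3.45 and 3.85 in nuwa_HO and 1.12 to 2.21 in the heterozygous libraries (3.35-fold between the homozygous groups, edgeR adjusted p = 1.06e-05). The mitochondrial RPOTM had 21.4, 19.7 and 22.3 against 8.26, 8.89 and 9.35 CPM (2.39-fold, edgeR adjusted p = 6.27e-05) and the plastid RPOTP 41.9, 42.6 and 46.5 against 27.4, 32.3 and 29.7 (1.47-fold, edgeR adjusted p = 0.0132). Of the 3, RPOTP differed least and was not called in the difference beyond the heterozygous groups. Among sigma factors SIG1 was 4.25-fold, SIG2 3.07-fold and SIG6 2.51-fold lower (edgeR adjusted p = 0.000114, 5.73e-05 and 2.76e-05).

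Editing factor genes were higher in 19 and lower in 7 of 40 tested (median 0.39), against 30.8% and 29.0% of all genes, and the share called in either direction was near that of all genes (59.8%). MORF4, of the MORF family whose members join editing complexes, had 9.02, 7.35 and 8.95 CPM in dyw2_HO and 1.02, 0.972 and 1.55 in nuwa_HO (7.09-fold, edgeR adjusted p = 7.9e-06). The mitochondrial MORF1 had 30.99, 30.4 and 26.8 against 6.40, 9.12 and 13.03 (3.09-fold) and the dually targeted MORF8 119, 127 and 114 against 56.6, 55.6 and 61.4 (2.07-fold, edgeR adjusted p = 1.91e-05). The plastid MORF9 was 2.61-fold lower (19.7, 22.2 and 21.5 against 65.6, 56.4 and 43.4 CPM, edgeR adjusted p = 1.87e-05). Mitochondrial site factors such as MEF7 (2.46), MEF10 (2.39) and MEF22 (1.85) were higher on the log2 scale. The 7 lower genes included MORF9, LPA66 (3.87, 4.90 and 5.01 against 12.2, 11.5 and 9.895 CPM) and 3 plastid factors of NDH transcripts. Of these 3, DYW1 was 5.67-fold lower (1.18, 2.02 and 2.31 against 12.5, 10.4 and 8.61 CPM, edgeR adjusted p = 3.05e-06). CRR21 was at -2.41 and CRR4 at -0.89 on the log2 scale. Of the 40 genes 14 were not called. GRP23 (AT1G10270), which like NUWA and DYW2 takes part in editing complexes, had a log2 fold change of 2.32. The editing factors MEF8 and MEF8S were not called (0.10 and 0.02).

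Senescence and sugar starvation genes were higher in 5 of 8 tested (median 2.80), with ASN1, an asparagine synthetase induced in the dark, at 53.4, 67.99 and 57.8 against 1.88, 1.48 and 4.45 CPM (22.7-fold, edgeR adjusted p = 1.94e-05) and SAG13 at 139, 82.7 and 104 against 4.38, 4.66 and 4.35 (24.3-fold, edgeR adjusted p = 0.000107). Of 10 salicylate and defence genes 3 were higher, about the share of all genes (30.8%), and 1 lower (median 0.49, against a heterozygous median of 0.75). The lower gene, ICS1, was not called without nuwa_HO replicate 3 (edgeR adjusted p = 0.0781). OSM34, an osmotin, had 2219, 1813 and 1338 counts in dyw2_HO and 0, 1 and 1 in nuwa_HO, a pooled ratio of 2699 after scaling (exact 95% counting interval 747 to 22292, edgeR adjusted p = 1.45e-06). PR1, a salicylate-induced pathogenesis-related gene, had 503, 471 and 396 against 67.3, 34.9 and 119 CPM (edgeR adjusted p = 0.00226), but it was not called in the difference beyond the heterozygous groups. Jasmonate genes, 4 higher and 4 lower of 14, were near the shares of all genes in both directions (30.8% and 29.0%), with a median of -0.23, and of 0.18 without nuwa_HO replicate 3. Single members differed. AOS, the allene oxide synthase, was 12.9-fold lower (8.54, 8.65 and 11.7 against 141, 157 and 73.04 CPM, edgeR adjusted p = 4.04e-06) and the allene oxide cyclase gene AOC2 10.1-fold lower, while its paralogue AOC3 was 5.78-fold higher (edgeR adjusted p = 0.000641).

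Cold and drought genes were lower in 9 and higher in 1 of 13 tested (median -2.23), against 29.0% and 30.8% of all genes. RD22, a dehydration-responsive gene, had 11, 13.7 and 16.7 against 81.3, 122 and 95.6 CPM (7.22-fold lower, edgeR adjusted p = 3.05e-06), and DREB1A, a regulator of the cold response, 0.0336, 0.0593 and 0.0607 against 0.357, 0.604 and 0.428 (8.36-fold lower, edgeR adjusted p = 4.29e-05). DREB1A rested on few reads in dyw2_HO, so the size of its fold is uncertain. The exception was the dehydrin gene LTI30, 3.16-fold higher (edgeR adjusted p = 0.00254). Without nuwa_HO replicate 3 the list had 7 lower of 14. Of 17 flavonoid genes 7 were higher and 2 lower (median 1.39), against 30.8% and 29.0% of all genes. The regulators MYB90, TT8 and GL3 were higher, and so were the anthocyanin enzyme genes DFR (log2 fold change 3.14) and AT5MAT (3.88). GL3 rested on few reads, at 0.168, 0.336 and 0.152 against 0.0238, 0.0335 and 0 CPM. Lower were the enzyme genes CHS (4.03-fold, edgeR adjusted p = 0.000165) and FLS1 (4.34-fold). MYB90 had 0.908, 1.64 and 1.24 against 0.0714, 0.201 and 0.0476 CPM (edgeR adjusted p = 0.000587). Of 15 cell cycle and DNA damage genes 3 were higher, under the share of all genes (30.8%), and none lower (median -0.09, and 0.54 with 4 higher without nuwa_HO replicate 3). They were PARP2, a DNA repair polymerase (11.2, 11.8 and 10.7 against 1.52, 1.61 and 2.31 CPM, edgeR adjusted p = 3.48e-06), the cell cycle inhibitor SMR5 (8.47-fold) and the cyclin CYCB1;1 (6.46-fold).

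Of 9 flowering time genes tested 2 were higher and 5 lower (median -0.35), against 30.8% and 29.0% of all genes. FT, the mobile flowering signal made in leaves, had 0.0673, 0.0790 and 0.0303 CPM in dyw2_HO and 7.52, 2.95 and 1.52 in nuwa_HO, and 1.22 to 4.88 in the heterozygous libraries. It was 62.8-fold lower in dyw2_HO with no overlap (log2 fold change -5.97 ± 0.81 SE, edgeR adjusted p = 7.27e-05). FT rested on few reads in dyw2_HO, so the size of its fold is uncertain. Its paralogue TSF (log2 fold change -2.23), the floral integrator SOC1 (14.8, 29.9 and 26.7 against 87.2, 73.03 and 49.7 CPM, edgeR adjusted p = 0.000441) and the repressors SVP (2.09-fold, edgeR adjusted p = 0.000143) and MAF1 (-0.35) were lower too. FLC, a repressor of FT, had 22, 27 and 11 counts in dyw2_HO and 0, 0 and 2 in nuwa_HO, a pooled ratio of 30.2 after scaling (exact 95% counting interval 7.99 to 254.7, edgeR adjusted p = 0.000877). In the heterozygous libraries FLC had 0.0741 to 0.396 CPM, so nuwa_HO lay below them and dyw2_HO, at 0.740, 0.533 and 0.334, overlapped them at the upper end. GI, which links the clock to flowering, had 35.02, 32.6 and 34.8 against 4.35, 9.02 and 10.2 CPM (4.36-fold, edgeR adjusted p = 7.76e-05). Clock genes were called in about the share of all genes (59.8%), with 6 of 10. The 3 higher were ELF3 (5.56-fold, edgeR adjusted p = 2.74e-06), TOC1 (2.72-fold) and PRR5 (7.94-fold), and the 3 lower PRR9 (1.83-fold), CCA1 (1.72-fold, edgeR adjusted p = 0.00113) and RVE1 (1.88-fold). The genes that were higher peak in the afternoon or evening and those that were lower around dawn or morning, as background. The labels give no harvest times.

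Flower markers depended on nuwa_HO replicate 3. The list counts below stand beside 30.8% of all genes called higher and 29.0% called lower with all libraries. Of 16 tested tapetum and pollen coat genes 6 were lower in dyw2_HO (median -6.57), and without that library 0 of 18 were called by edgeR, with 1 at an unadjusted p under 0.05 (median 0.00). DESeq2 called 10 of the 16 with all libraries. With other single libraries left out the count was 0 to 12, and 0 without dyw2_HO replicate 2 and 1 without replicate 1 or 3. GRP19, a pollen coat glycine-rich protein, had 0, 1 and 0 counts in dyw2_HO and 1, 2 and 1330 in nuwa_HO, and EXL4, a pollen coat lipase, 0, 3 and 0 and 1, 1 and 924. VGD1, a pectin methylesterase of pollen tubes, had 0, 0 and 0 and 0, 0 and 344. The 2 other nuwa_HO libraries lay at the level of dyw2_HO, so the low values of the late pollen list (2 lower of 5, and 0 of 5 without replicate 3) are those of 1 library. Floral organ identity genes were lower in 6 and higher in 1 of 13 (median -1.63), and without replicate 3 lower in 2 and higher in 5 of 13 (median 0.82). AG, which specifies stamens and carpels, kept its call and had 0.0336, 0.158 and 0.395 CPM in dyw2_HO and 2.05, 1.71 and 4.995 in nuwa_HO (14.9-fold lower, edgeR adjusted p = 0.000157). SEP4 kept it as well, at 3.03, 3.58 and 3.70 against 13.6, 12.1 and 10.7 CPM (3.53-fold lower, edgeR adjusted p = 5.19e-06). SEP3, with 0.841, 0.652 and 1.001 against 1.43, 0.939 and 16.3 CPM, did not (edgeR adjusted p = 0.0159, and 0.289 without it). Secondary cell wall genes, which mark stem, were lower in 6 of 15 (median -0.94), and without replicate 3 lower in 4 and higher in 1 (median 0.03).

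The nuclear genes with the largest differences were taken among those with a mean log2 CPM of 1 or more and no overlap between the groups. Higher in dyw2_HO were KTI1, NIT2, DOX1, ABCG40, HCHIB, Rap2.6L, CYP76C2, AOX1D, AT1G30700 and JRG21, with log2 fold changes of 7.17 to 11.36. KTI1, a trypsin inhibitor, had 3509, 4584 and 2869 counts in dyw2_HO and 2, 0 and 2 in nuwa_HO (edgeR adjusted p = 0.000367). NIT2, a nitrilase, had 395, 327 and 315 against 0.476, 0.436 and 0.523 CPM (714-fold, edgeR adjusted p = 0.000104). HCHIB, a basic chitinase, had 32.9, 48.1 and 24.7 against 0.238, 0.168 and 0.0714 CPM (219-fold, edgeR adjusted p = 7.06e-07), and ABCG40, a transporter of abscisic acid, 504, 316 and 197 against 0.761, 1.31 and 2.45 (224-fold, edgeR adjusted p = 1.48e-05). In the heterozygous libraries 7 of these 10 genes, KTI1, NIT2, DOX1, Rap2.6L, CYP76C2, AOX1D and AT1G30700, were highest in nuwa_HE replicate 2, with 983 counts of KTI1 beside 4 and 10 in the other nuwa_HE libraries and 993 of NIT2 beside 13 and 32.

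Lower in dyw2_HO were AT1G13650, AT1G66100, AT1G73600, AT5G54585, CIPK20, FBA5, AT3G06145, SAUR20, AT1G29430 and DCF, with log2 fold changes of -6.91 to -5.67. AT1G66100, a thionin, had 2.09, 3.99 and 2.94 CPM in dyw2_HO and 428, 269.6 and 173 in nuwa_HO (95.4-fold lower, edgeR adjusted p = 7.06e-07). CIPK20, a protein kinase of calcium signalling, had 0.269, 1.03 and 3.40 against 123, 108 and 76.1 CPM (65.7-fold lower, edgeR adjusted p = 6.76e-06). FBA5, a fructose-bisphosphate aldolase, had 0.942, 6.38 and 12.3 against 429, 417 and 409 CPM (63.9-fold lower, edgeR adjusted p = 2.84e-05). DCF, an acyltransferase of cutin, had 0.168, 0.336 and 0.637 against 20.9, 21.5 and 16.1 (50.8-fold lower, edgeR adjusted p = 6.09e-07). SAUR20 and AT1G29430, of the auxin-responsive SAUR family, were 53.6-fold and 52.2-fold lower. For 9 of the 10 genes nuwa_HO overlapped the heterozygous range, such as 19.9 to 29.1 CPM for DCF, and AT1G73600 lay above it, at 51.6, 47.8 and 40.3 CPM against 19.2 to 38.99.

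A small set of genes differed between the mutants already in the heterozygous groups. Of the 28 genes called there, 24 were called the same way between the homozygous groups, 15 of them with no call in the difference between both comparisons. Of the 22 that were lower in dyw2_HE, 21 lay within 1 stretch of chromosome 5. Taking neighbouring tested genes with a heterozygous log2 fold change of -0.7 or lower, a threshold chosen after the values were seen, this run held 29 genes from AT5G16220 to AT5G16520, chromosome 5, 5298112 to 5397466 (TAIR10.1), about 99.4 kb, and the next longest run in the genome in either direction held 4. Within it the heterozygous log2 fold change was -0.97 to -3.18 (median -1.53, or 2.88-fold higher in nuwa_HE). The 20 tested genes beside it, 10 on each side, had -0.56 to 0.34 (median -0.12). Between the homozygous groups the median was -1.24, or 2.36-fold higher in nuwa_HO, with 22 of the 29 genes called lower in dyw2_HO, none higher, and a range of -5.87 to 0.56. Of all genes tested 29.0% were called lower between the homozygous groups, and 59.8% were called in either direction.

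Genes of unlike function shared this difference. UCH1 had the values given with the labels above, 3.09-fold lower in dyw2_HO (log2 fold change -1.63 ± 0.11 SE, edgeR adjusted p = 8.6e-07). IPP1, an isopentenyl diphosphate isomerase, had 15.2, 15.2 and 15.3 CPM in dyw2_HO and 40.8, 41.1 and 38.7 in nuwa_HO, and 15.03, 14 and 15.1 against 48.3, 54.5 and 40.05 in the heterozygous libraries (log2 fold change -1.40 ± 0.12 SE between the homozygous groups, edgeR adjusted p = 2.79e-06). VAT1, AT5G16470 and AT5G16280 were 3.53-fold, 2.67-fold and 2.52-fold lower in dyw2_HO. In each of these the dyw2 libraries, homozygous and heterozygous alike, lay below every nuwa library. Over the run, 12 of the 29 genes were called in the difference between both comparisons, about the share of all genes (40.9%). In 8 of them, AT5G16360, AAE5, AT5G16380, AT5G16410, AT5G16420, AT5G16450, RGP5 and AT5G16520, the homozygous fold change was the less negative or was above 0, as in AAE5 (-0.23 against -1.54 between the heterozygous groups, edgeR adjusted p of the difference = 0.00175). In 4, AT5G16240, CAC1, TRXF2 and PFA-DSP5, it was the more negative, as in the thioredoxin gene TRXF2 (-3.95 against -1.80, edgeR adjusted p of the difference = 5.08e-05).

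**Figure D5:**
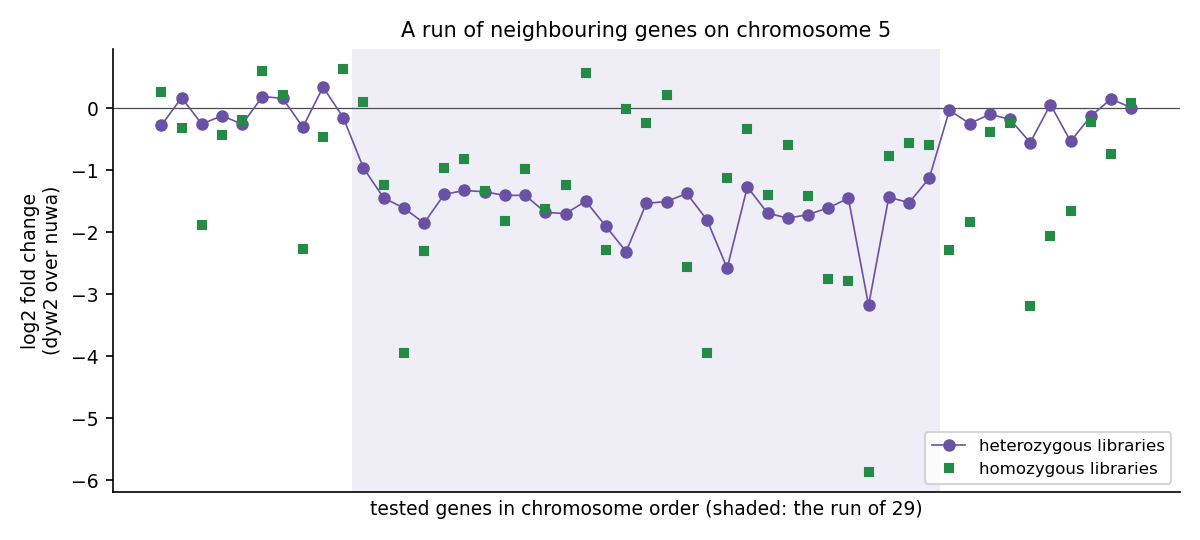
Log2 fold change of dyw2 over nuwa for 49 neighbouring tested genes of chromosome 5 in chromosome order, between heterozygous (circles) and homozygous (squares) libraries, with the run of 29 genes shaded. The circles lie between -0.97 and -3.18 inside the shaded run and between -0.56 and 0.34 beside it.

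Of the 6 genes higher in dyw2_HE, NET2B, MUG2, AT3G44570, LOX4 and AT4G22580 were higher in dyw2_HO as well, against 30.8% of all genes. NET2B had 159, 223 and 157 counts in dyw2_HO and 0, 0 and 2 in nuwa_HO, a ratio of 271 after scaling (exact 95% counting interval 74.6 to 2243, which holds no spread between libraries). MUG2, a gene derived from a transposase, had 1.68, 1.54 and 1.15 against 0, 0.101 and 0.119 CPM, with 1.10, 1.31 and 1.40 against 0.0880, 0.132 and 0.0871 in the heterozygous libraries. AT3G44570, of a retrotransposon, had 43, 100 and 44 counts in dyw2_HO and 1, 0 and 1 in nuwa_HO, a pooled ratio of 93.99 after scaling (exact 95% counting interval 25.7 to 782). LOX4, a lipoxygenase, had 10.1, 8.04 and 7.92 against 1.93, 3.39 and 5.11 CPM (2.50-fold, edgeR adjusted p = 0.0025). None of these 4 was called in the difference between both comparisons.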

How the data were processed

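RNA of 12 Arabidopsis samples was sequenced with a stranded total-RNA kit after ribosomal depletion, per the labels' protocols. Each deposited file holds counts of reads per gene model, and the authors removed reads with equal best and second-best alignment scores before counting, per the file headers. TopHat2, Bowtie2 and TAIR10 are named in the submitters' processing notes. The use of strand in counting is not stated, and overlapping genes may share reads.

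Groups followed the titles. Genes passing edgeR's filterByExpr (minimum count 10, minimum total 15) were fitted in 1 model of 4 groups (edgeR 4.0.16 quasi-likelihood, TMM scaling, 8 residual degrees of freedom, R 4.3.3), and p-values were adjusted by Benjamini-Hochberg over all 21213 genes, with a threshold of 0.05. A gene is called when it passes, and higher or lower means in dyw2_HO relative to nuwa_HO. In 1 simulation of the homozygous comparison with 21213 genes, the fit recovered 53% of 2-fold and 91% of 4-fold changes, with 4 false among 148 calls. Only 100 genes were changed 2-fold and 100 4-fold there, all above a minimum expected count. The data gave 12684 calls, so these rates do not carry over to them. Shares were compared with exact permutation tests (scipy 1.17.1). Intervals on count ratios cover counting error only. DESeq2 1.42.0 was an alternative, beside other scalings, filters, depths, samples and labels.

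The rule for named genes took DYW2, NUWA, 10 nuclear genes per direction by size of the called change (mean log2 CPM 1 or more, groups not overlapping), up to 3 called members per list and direction by smallest p, and the 5 per direction called alike between heterozygous groups. Other genes of the lists are given by their list membership, and those on chromosome 5 and the motif were chosen after values were seen. Members and lists were chosen with earlier results of these data known. Organelle gene names came from a list of expected names by gene ID, kept where model length or an annotation note matched RefSeq. Models that failed, such as ndhB, were left out of the lists set by name. Of 33602 models 32835 matched the TAIR10.1 annotation of RefSeq.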

Additional observations from a re-analysis of the deposited data

Results flagged for a closer look

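The difference between dyw2 and nuwa was tested for a departure between homozygous and heterozygous libraries, and 8667 genes passed (edgeR adjusted p under 0.05). Among the 151 named genes 124 passed. The gene that went opposite ways in both comparisons with a call in each was AT2G21180. It had 1.18, 1.09 and 1.18 CPM in dyw2_HO and 0.595, 0.872 and 0.666 in nuwa_HO, but 0.206, 0.185 and 0.165 in dyw2_HE and 0.924, 1.26 and 0.853 in nuwa_HE. Its log2 fold change was 0.70 between the homozygous and -2.44 between the heterozygous groups, a difference of 3.13.

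Reads that the counting had set aside also differed between groups. Of mapped reads, 6.01% were removed for equal alignment scores in dyw2_HO (5.94% to 6.06%), against 3.22% in nuwa_HO, 2.98% in dyw2_HE and 2.75% in nuwa_HE. These reads are in no count above, and which genes they came from was not tested.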

How the results depend on the processing

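With groups from the genotype field, edgeR called 0 genes between the homozygous groups (840 at an unadjusted p under 0.05), 0 between the heterozygous groups (408) and 0 for the difference between both comparisons (409). The share differences then were 0.844 percentage points (mitochondrial) and -12.8 (plastid). With groups from the titles, they were 1.74 without cox1 and -20.8 without psbA. Leaving out 1 library at a time gave 11165 to 12855 calls between the homozygous groups, 18 to 115 between the heterozygous groups and 7256 to 9541 for the difference, and share differences of 2.31 to 2.40 and -33.7 to -30.3 points. DESeq2 called 160 genes between the heterozygous groups. The other alternatives kept the counts within 1.5 times. Log2 fold changes that changed sign or went to 0 were GRP17 (2.12) and VGD1 (0) without nuwa_HO replicate 3 (ranges over single libraries left out -9.50 to 2.12 and -10.65 to 0), and both (0 and 0) without both disputed libraries. Under the genotype field they were DYW2 (0.071), cox2 (-0.0036), GRP19 (8.202), EXL4 (7.42), GRP17 (7.48), PPME1 (7.36), VGD1 (10.03), AG (0.51), SEP3 (2.59), GL3 (-0.42) and FLS1 (0.25). Of all recomputed values of named genes 3230 kept direction and call, 211 lost the call, 15 turned and 1 gained it. The cause of these changes was not tested.

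With replicate number as a block, 12107 genes were called between the homozygous groups, 12001 of them shared with the fit without it. Same-numbered libraries did not deviate together (correlations of -0.091, -0.088 and -0.091), so the numbers were not taken to pair the samples.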

Other observations

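Families named by product words after values were seen, and so given as counts without a test, are set beside the shares of all genes tested, of which 30.8% were called higher and 29.0% lower in dyw2_HO than in nuwa_HO. SAUR-like auxin-responsive genes, which promote cell expansion, were called lower in 38 and higher in 6 of 59 tested (median log2 fold change -2.58), and expansins, which loosen cell walls, lower in 11 and higher in 3 of 18 (median -1.48). WRKY transcription factors, many of them regulators of defence, were higher in 42 and lower in 3 of 58 (median 1.98), with WRKY61 at 7.55. Glutathione S-transferases, detoxifying enzymes, were higher in 20 and lower in 11 of 41 (median 1.01). DUF295 proteins were higher in 13 and lower in 3 of 25 (median 2.51). Pentatricopeptide repeat proteins, the family of DYW2 and NUWA, were higher in 114 and lower in 41 of 260 (median 0.48), and DYW1 was the lowest of them at -2.50. UDP-glycosyltransferases, 38 higher and 25 lower of 105 (median 0.17), were called in about the share of all genes (59.8%). Many members of these families are tandem copies, and reads that fit several copies equally well are not counted.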
